A study of Mus musculus with 8 samples.

Results

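The genes described here encode the factors that start and extend protein synthesis on the cytosolic ribosome. They were chosen by name as every gene whose GENCODE symbol begins with Eif or Eef, with annotated pseudogenes (symbols ending in -ps) left out. The rule found 70 genes among the 54146 gene identifiers of the count tables. Of these, 69 are protein coding and 1, Eif2c5, is a long noncoding RNA that carries an old Eif symbol, and 10 pseudogenes were left out. The levels came from single-cell RNA-seq of wild-type E14 mouse embryonic stem (ES) cells, a line derived from the inner cell mass, grown on gelatin with a layer of mouse embryonic fibroblast feeders in LIF/2i medium, which holds ES cells in an undifferentiated state, for 2 days. One library came from untreated cells (control) and the other from cells treated with CX-5461, an inhibitor of RNA polymerase I and therefore of rRNA synthesis. The labels give neither dose nor time for the treated cells, and both libraries share line, feeders and medium.

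Initiation factors carry the initiator tRNA and the small ribosomal subunit to the cap of an mRNA and on to its start codon. eIF2 brings the tRNA as a complex with GTP, and eIF3 and eIF1A hold the small subunit ready. The eIF4 proteins bind the cap and unwind the leader. eIF5 triggers GTP hydrolysis on eIF2, and eIF5B closes the step by joining the large subunit. Elongation factors then deliver each aminoacyl-tRNA (eEF1A, recharged by the eEF1B complex) and move the ribosome forward (eEF2). Many mRNAs of this machinery begin with a terminal oligopyrimidine (TOP) tract and are read according to mTOR activity, together with the mRNAs of ribosomal proteins.

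The files held 3838 barcodes with 49610287 unique molecular identifiers (UMIs, each marking 1 captured RNA molecule) in the control and 4922 barcodes with 69841836 UMIs after CX-5461. Although 4 samples per condition are labelled, all barcodes of a condition stand in 1 table without a sample of origin, so there is 1 library per condition, no replicate check and no test. Barcodes are numbered rather than spelled out, so barcodes shared by the libraries could not be counted. ES cells were taken as cells with at least 5000 UMIs, at most 0.1 of them on mitochondrially encoded (mt-) genes and collagen under 0.1% of UMIs, 2513 control cells with a median of 15714 UMIs and 4029 treated cells with a median of 14674. Feeders were taken as cells with Col1a1, Col1a2 and Col3a1 at 0.1% of UMIs or more, 141 and 146 cells with medians of 22538 and 24958.5 UMIs. The pluripotency factor Pou5f1 stood at 920 CPM (UMIs of the gene scaled to the total of the cell group) in control and 749 CPM in treated ES cells, against 58.8 and 21.0 CPM in feeders. All 12 ES cell markers together, Pou5f1 included, stood at 7506 and 8215 CPM in ES cells and at 564.5 and 425.1 CPM in feeders. The ES cell gate still held 64 control and 34 treated cells with ES markers under 0.2% of UMIs, and the 18 fibroblast markers summed to 752.9 CPM in control and 470 CPM in treated ES cells. No doublet caller was run; feeders with ES markers under 0.2% of UMIs were 131 of the 141 control and 143 of the 146 treated cells. Fibroblast marker levels in the feeder cells also differed between the libraries. Of 17 compared markers 8 were called higher and 3 lower (calls as defined below), beside 17.8% and 19.0% of all genes compared in feeders. The smooth muscle actin gene Acta2 went from 2494 to 948 CPM and Col3a1, a gene of the feeder gate, from 282 to 887 CPM. Whether the feeders differed in makeup or in expression was not tested, and 1 library per condition cannot tell these apart.

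Levels are UMIs summed over the cells of a group, as CPM, and the library counts 1 tag at the 3′ end of each molecule, so levels can be set beside each other between genes without regard to transcript length. Intervals are exact at 95% and cover counting error only. A gene was compared between libraries where it had at least 200 UMIs over both. Among the 11778 genes compared in ES cells the median log2 ratio of CX-5461 over control was 0.348, a 1.273-fold shift. Beside it, ribosomal protein genes went from 28.6% to 23.6% of UMIs and mt- genes from 2.05% to 4.02%. In feeders (3443 genes) the median was 0.173. Changes are therefore given as the log2 ratio minus that median (the relative log2 ratio), and a gene was called lower or higher where it lay at least 0.5 from the median, a 1.41-fold difference.

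In control ES cells the 70 genes held 2.11% of all UMIs, and a few of them held most of that. Eef1a1, which carries aminoacyl-tRNA to the ribosome, stood alone at 4583 CPM with 21.7% of the group's UMIs. Below it, Eef1g (1644 CPM, a subunit of the eEF1B exchange complex), Eif1 (1417 CPM, start codon choice), Eef1b2 (1385 CPM, the exchange subunit of eEF1B), Eif5a (1380 CPM, which helps ribosomes past difficult peptide bonds), Eif2s2 (1347 CPM, the beta subunit of eIF2) and Eif4a1 (1123 CPM, the cap-side helicase) followed. The counting intervals of Eef1b2 and Eif5a met, so their order is not resolved. These 7 genes made up 61.0% of the group's UMIs, and Eif4ebp1, Eif3k and Eef2, at 688.7, 626.2 and 602.0 CPM, completed the 10 most abundant. At the other end, Eef1a2, the Eef1a1 paralog of muscle and neurons, had no UMI in control ES cells and 5 in treated ones.

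**Figure D1:**
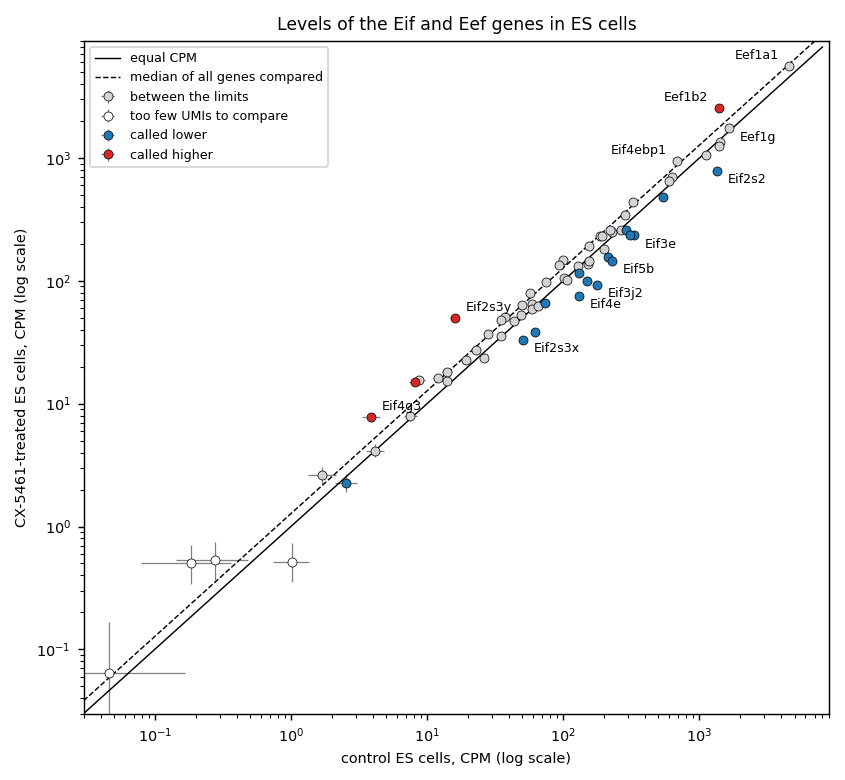
Level of each Eif and Eef gene in ES cells of the control library (x axis) and of the CX-5461 library (y axis), in CPM on log scales, with 95% counting intervals. The solid line marks equal CPM and the dashed line the median shift of all genes compared; Eif2s2 lies below both lines at 1347 and 789.5 CPM, and Eef1b2 and Eif2s3y lie above both.

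After CX-5461 the group as a whole changed little next to its members. It went from 21124 to 22903 CPM in ES cells, a log2 ratio of 0.117 (95% counting interval 0.113 to 0.120) that lay 0.231 below the median of all genes, so that its direction depends on the scale. Per cell, the group held a median of 2.13% of UMIs in control cells (quartiles 1.958% and 2.30%) and 2.28% in treated cells (2.13% and 2.44%). Eef genes together went from 9011 to 11333 CPM, at the shift of all genes (-0.02 relative to it), and Eif genes from 12113 to 11570 CPM (-0.41). The medians over single genes were close, at -0.23 for Eef and -0.28 for Eif genes. Most Eef UMIs came from Eef1a1 and Eef1b2. Without these 2 genes the remaining Eif and Eef genes together went from 15156 to 14740 CPM.

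Gene by gene, 65 of the 70 had enough UMIs in ES cells. Of these, 15 were called lower, where 20.6% of all genes compared were, and 4 higher, where 23.5% of all genes were. The share lower (15 of 65) was thus close to the background, and the share higher was below it. The members' median relative log2 ratio was -0.249, against 0 for all genes by construction. The 76 ribosomal protein genes, the other large class of the translation machinery, stood further down, with 46 called lower, 0 higher and a median of -0.59. On library totals, without centring, Eif3j2, Eif4e, Eif2s2, Eif3j1, Eif5b, Eif2s3x and Eif1a still lay 0.5 or more below the control, the other 8 lay between -0.16 and -0.49, and 8 members lay 0.5 or more above it. Just inside the limit lay Eif3c and Eif4b, both at -0.505, and just outside it Eif5a at -0.497, Eif1ax at -0.495 and, on the upper side, Eef1akmt2 at 0.499. Eif4e1b, Eif4e3, Eef1akmt3, Eif2c5 and Eef1a2 had too few UMIs to compare.

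**Figure D2:**
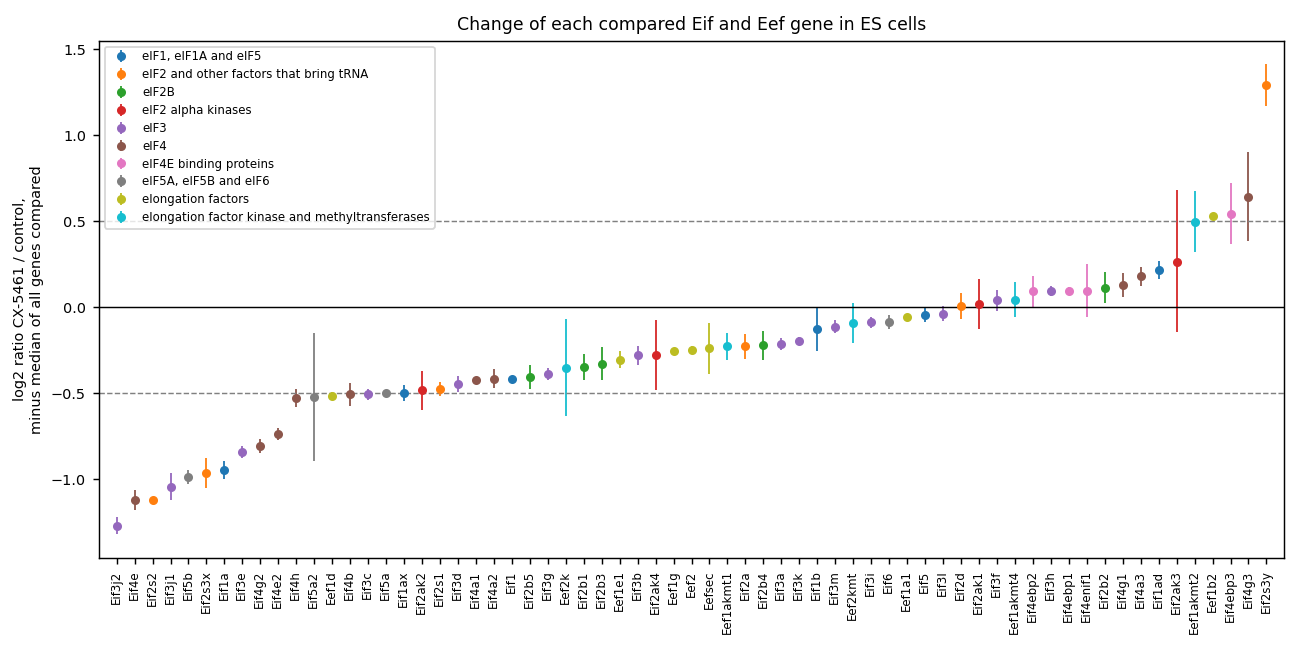
Relative log2 ratio (CX-5461 over control, minus the median of all genes compared) of the 65 compared Eif and Eef genes in ES cells, ordered by value and coloured by role; bars are 95% counting intervals and dashed lines the limits of a call at 0.5. The values run from -1.27 for Eif3j2 to 1.29 for Eif2s3y, with 46 genes between the limits.

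eIF2, the complex that brings the initiator tRNA, contained genes called in both directions, including the highest value of the group. Its beta subunit Eif2s2 was at 1347 CPM in control and 789.5 CPM in treated ES cells, a relative log2 ratio of -1.12, and was the most abundant of all members called lower. Its alpha subunit Eif2s1, the site of regulatory phosphorylation, was at 198.1 and 181.5 CPM (-0.47), between the limits. The gamma subunit, which binds GTP and the tRNA, has an X-linked and a Y-linked gene in the mouse. The X-linked copy Eif2s3x (chrX:94188707-94212862) went from 50.9 to 33.2 CPM (-0.97), and the Y-linked copy Eif2s3y (chrY:1010543-1028847) from 16.0 to 49.8 CPM (1.29). The copies share 97.9% of 472 aligned residues, and together they stood at 66.9 CPM in control and 83.0 CPM in treated ES cells, close to the shift of all genes. A UMI of Eif2s3y was found in 20.9% of control and 46.2% of treated ES cells, or 7.04% and 20.9% once every cell was thinned to 5000 UMIs. In feeders, which gave 6.38% and 4.80%, the gene had 12 and 8 UMIs.

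Other Y-linked genes were not all alike in ES cells. Zfy1, a zinc finger gene, went from 0.276 to 4.67 CPM and Uba1y, a ubiquitin-activating enzyme, from 0.691 to 5.17 CPM, both called higher. Both passed the minimum of 200 UMIs through the treated library (12 and 289 UMIs of Zfy1, 30 and 320 of Uba1y), and 30 control and 215 treated counts of Uba1y over the whole tables were marked as shared with other genes, so its level is uncertain. Ddx3y, an RNA helicase, went from 12.3 to 20.5 CPM (0.39) and the demethylase gene Uty from 3.06 to 3.30 CPM (-0.24), neither called. The X-linked partner of Ddx3y, Ddx3x, was at 96.3 and 58.7 CPM and called lower (-1.06), as Eif2s3x was. Among other X-linked genes with a Y-linked relative, Kdm6a was at 9.79 and 7.94 CPM and called lower (-0.65). Kdm5c, at 16.8 and 18.3 CPM, was not called (-0.22).

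The remaining genes around eIF2 stayed between the limits in ES cells. All 5 subunits of eIF2B, which reloads eIF2 with GTP, lay between -0.40 (Eif2b5) and 0.12 (Eif2b2), and summed to 239.1 CPM in control and 255.3 CPM in treated cells. The 4 kinases that phosphorylate eIF2 alpha ran from -0.48 for Eif2ak2 (PKR, 26.0 and 23.7 CPM) to 0.26 for Eif2ak3 (PERK, 1.70 and 2.60 CPM). Eif2a and Eif2d, alternative carriers of tRNA, had relative log2 ratios of -0.23 and 0.01.

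eIF3, the scaffold on the small subunit, had 14 genes with 4 called lower and 0 higher, beside 20.6% and 23.5% of all genes. The loosely bound subunit eIF3j is encoded by Eif3j1 and Eif3j2, whose predicted proteins were identical over 261 residues. Eif3j2 was at 176.4 CPM in control and 93.1 CPM in treated ES cells (-1.27), and Eif3j1 at 61.9 and 38.2 CPM (-1.04). No count of either copy was marked by the authors as shared with another gene, although reads from such near-identical copies may still be split. Eif3e went from 331.2 to 235.2 CPM (-0.84) and Eif3c from 289.6 to 259.6 CPM (-0.505). Eif3a, Eif3b, Eif3g and Eif3i stayed between the limits, from -0.39 for Eif3g to -0.09 for Eif3i. Eif3h (323.3 and 439.2 CPM) and Eif3f (74.8 and 97.9 CPM) lay at 0.09 and 0.04.

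At the cap, 5 of 10 compared eIF4 genes were called lower, against 20.6% of all genes, and 1 higher, against 23.5%. Eif4e, the cap-binding protein, was at 129.4 CPM in control and 75.8 CPM in treated ES cells (-1.12), and a UMI of it was found in 85.1% of control and 64.6% of treated cells. Its relative Eif4e2, a cap-binding protein best known as a repressor, went from 309.9 to 236.9 CPM (-0.74). Eif4g2 (DAP5), a scaffold without a site for eIF4E, went from 213.0 to 155.0 CPM (-0.81), whereas Eif4g3, a full scaffold of low abundance, went from 3.89 to 7.73 CPM (0.64) and Eif4g1, the main scaffold, from 57.2 to 79.7 CPM (0.13). The helicase cofactors Eif4h (130.9 and 115.6 CPM) and Eif4b (73.0 and 65.5 CPM) lay at -0.53 and -0.505. The helicase Eif4a1 and its paralog Eif4a2, 90.6% identical in protein, had near-equal values of -0.43 and -0.42, and Eif4a3, which serves in the exon junction complex, was at 0.18.

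The 4E-BP list, repressors of eIF4E plus its transporter, had 4 genes with 0 called lower and 1 higher, beside 20.6% and 23.5% of all genes. Eif4ebp1, the most abundant, was at 688.7 CPM in control and 937.0 CPM in treated ES cells, a relative log2 ratio of 0.10. Eif4ebp2 and the transporter gene Eif4enif1 lay at 0.09 and 0.10. Eif4ebp3 was called higher at 8.15 and 15.1 CPM (0.55), but the authors marked 283 control and 658 treated counts of it as shared with an overlapping gene, so its level is uncertain. Without those counts, in proportion, its relative log2 ratio was 1.01.

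Among the genes that pick the start codon and join the subunits, the paired copies of eIF1A differed in size. Eif1a went from 150.1 to 99.3 CPM (-0.94) and its X-linked copy Eif1ax, 98.6% identical in protein, from 153.0 to 138.2 CPM (-0.495), so that equal levels in the control became unequal ones. Eif5b, the GTPase that joins the large subunit, went from 226.4 to 145.4 CPM (-0.99). Eif5, which triggers GTP hydrolysis on eIF2, was at 187.3 and 231.3 CPM (-0.04), and Eif1 at 1417 and 1353 CPM (-0.41). Eif5a lay at -0.497 with 1380 and 1245 CPM, and its rare paralog Eif5a2, at 2.56 and 2.26 CPM, was called lower at -0.52, with a log2 ratio before centring of -0.175 whose interval ran from -0.545 to 0.197. Eif6, which keeps free large subunits apart, was at 193.5 and 232.4 CPM (-0.08).

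**Figure D3:**
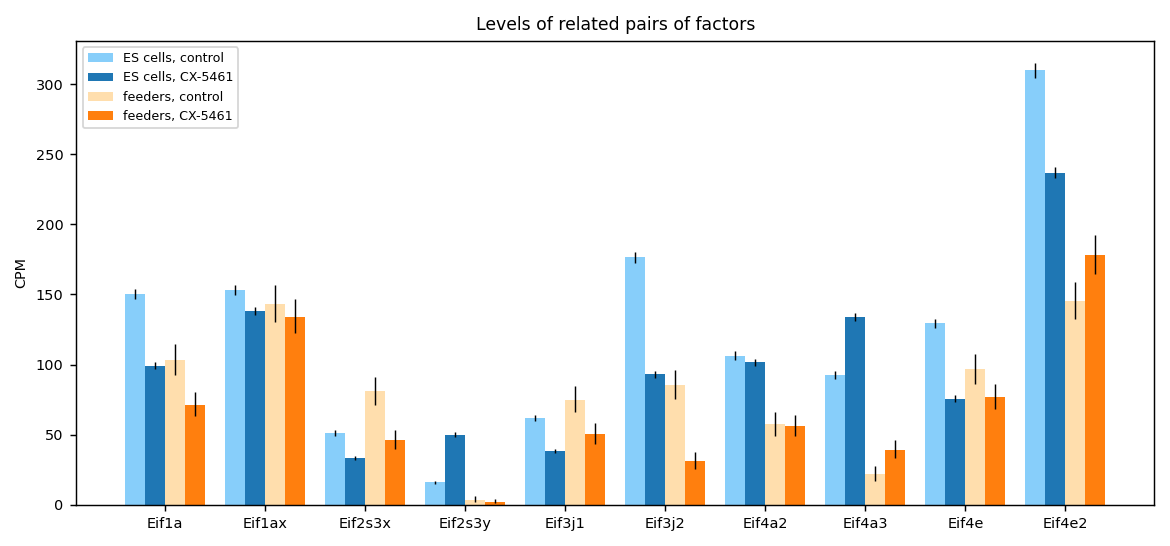
Levels in CPM of related factors (x axis) in ES cells and in feeders of both libraries, as bars with 95% counting intervals. Eif1a and Eif1ax stand level in control ES cells at 150.1 and 153.0 CPM, Eif2s3y overtakes Eif2s3x in treated ES cells, and Eif2s3y stays under 4 CPM in feeders.

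Of 7 compared elongation factor genes, 1 was called lower and 1 higher, beside 20.6% and 23.5% of all genes. Eef1b2 went from 1385 to 2548 CPM (0.53), from the fourth most abundant member to the second, and from 6.56% to 11.1% of the group's UMIs. The other subunits of the eEF1B complex did not share that value: Eef1g was at 1644 and 1758 CPM (-0.25) and Eef1d at 543.1 and 483.5 CPM (-0.52). Eef1a1, the substrate of eEF1B, went from 4583 to 5615 CPM (-0.06), a ratio below that of the median gene, and Eef2 from 602.0 to 644.9 CPM (-0.25). Processed copies of Eef1a1 are common in mammalian genomes, and reads from them could not be separated here. The genes that modify elongation factors were rare, with Eef2k, the kinase that halts eEF2, at 4.17 and 4.16 CPM (-0.35) and the methyltransferase gene Eef1akmt2 at 8.66 and 15.6 CPM (0.499).

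The 9 members listed as TOP mRNAs were mixed, where 20.6% of all genes were called lower and 23.5% higher. Eif3e, Eef1d and Eif4b were called lower, Eef1b2 higher, and Eef1g, Eef2, Eef1a1, Eif3f and Eif3h lay from -0.25 to 0.09. To show what the annotation has at their starts, and at those of the eIF2 gamma pair, the RefSeq promoter table (GRCm38.p6) was searched on the transcribed strand for a C followed by at least 4 further C or T letters, beginning within 5 bases of the annotated start. The table held 5 of the 9 TOP members, of which 2 had such a run, and the windows of Eef1d, Eef1g, Eif3e and Eif3h are not shown. The run was found in 13 of 54 Eif and Eef genes in the table (24.1%) and in 19.7% of all 27025 genes. In the windows below, 10 bases before the start and 20 from it, 5′ to 3′, the run is in capitals.
Eef1a1, chr9:78481705-78481734, minus strand: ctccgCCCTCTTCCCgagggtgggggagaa
Eif3f, chr7:108934405-108934434, plus strand: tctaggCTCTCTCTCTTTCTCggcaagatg
Eef1b2, chr1:63176821-63176850, plus strand: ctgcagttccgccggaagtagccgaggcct
Eef2, chr10:81176621-81176650, plus strand: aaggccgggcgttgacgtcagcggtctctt
Eif4b, chr15:102073763-102073792, plus strand: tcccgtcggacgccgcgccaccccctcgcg
Eif2s3x, chrX:94212632-94212661, minus strand: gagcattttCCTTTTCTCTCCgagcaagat
Eif2s3y, chrY:1010585-1010614, plus strand: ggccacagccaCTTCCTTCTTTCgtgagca
Eef1a1 and Eif3f, neither of them called, carry the run at the annotated start, and so do both gamma copies, which had the opposite calls. The windows of Eef1b2, Eef2 and Eif4b do not hold it at the annotated start, which says nothing about starts used in these cells.

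The calls were also set against sequencing depth, since the libraries differ in it. Split into cells with at least 5000, at least 10000 and at least 20000 UMIs, each class ending where the next began, each centred on its own median, all 15 genes called lower and all 4 called higher kept their sign in all 3 classes. Of these, 9 of the 15 (Eif3j2, Eif4e, Eif2s2, Eif3j1, Eif5b, Eif2s3x, Eif1a, Eif3e and Eif4g2) and 2 of the 4 (Eef1b2 and Eif2s3y) passed the limit in every class. Eif2s2 was at -1.45, -1.09 and -1.07, and Eif2s3y at 1.43, 1.24 and 1.33, in rising order of depth. Eif4g3 was at 1.20, 0.85 and 0.16, so its call was lost in the deepest class, where the interval ran from -0.305 to 0.620.

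**Figure D4:**
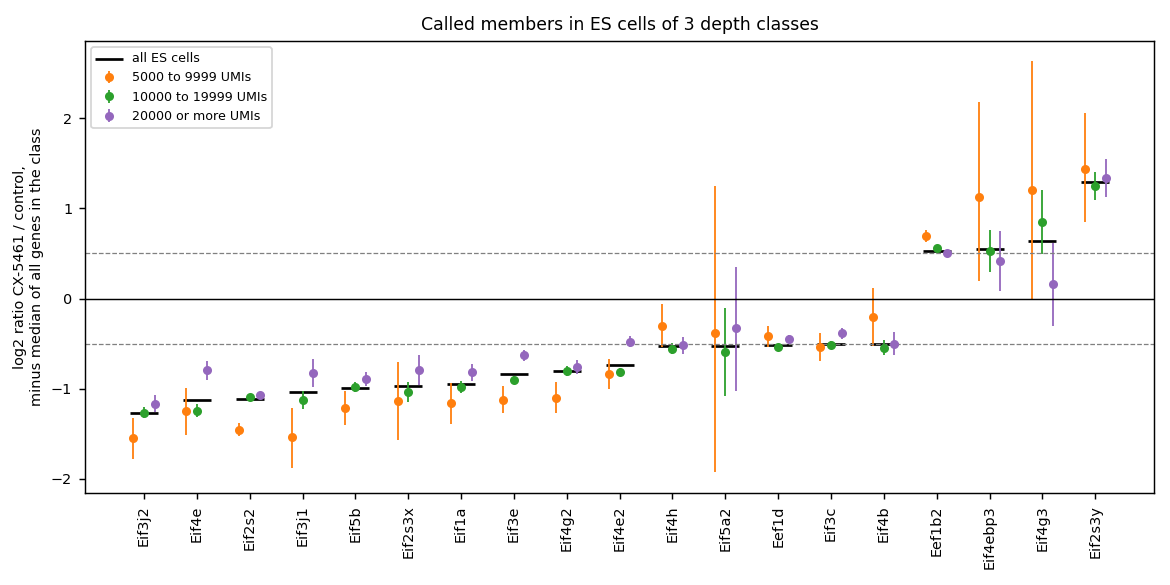
Relative log2 ratio of the 19 called members in ES cells of 3 depth classes (coloured points, 95% counting intervals) and in all ES cells (black bars); dashed lines mark the limits at 0.5. All points lie on the side of 0 of the call, and the wide intervals of Eif5a2, Eif4ebp3 and Eif4g3 in the shallowest class reflect few UMIs.

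Some of these genes also differed, within a library, in cells left out of the gate. Of 14 genes called lower that had enough UMIs there, 7 stood above and 7 below their ES cell level in shallow control cells. In 1106 other control cells with under 5000 UMIs, with a median mt- share of 12.2%, Eif2s2 stood at 2828 CPM, a log2 ratio of 1.07 over its level in control ES cells, Eif3j1 at 158.3 CPM (1.36) and Eif5b at 446.4 CPM (0.98). On the other side, Eif4e2 was at 160.1 CPM (-0.95), Eif4h at 72.2 CPM (-0.86) and Eif4e at 92.6 CPM (-0.48), while Eif1a was at 149.5 CPM (-0.01). Eef1a1 was at 2696 CPM there (-0.77). In 196 such treated cells Eif2s2 was at 1194 CPM (0.60) and Eef1a1 at 5638 CPM (0.01). These shallow cells, unequal in number between the libraries, are not in any comparison above, and their part in the calls was not tested beyond the depth classes.

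In feeders 48 members could be compared. Of these, 7 were called lower, where 19.0% of all genes were, and 4 higher, where 17.8% of all genes were, with a median of -0.11. The feeder and ES cell comparisons rest on the same 2 libraries, so they are given side by side and are not independent. The genes called lower in feeders were Eif3j2 (85.2 to 31.3 CPM, -1.62), Eif2s3x (80.9 to 46.1 CPM, -0.98), Eif2s2 (513.3 to 344.5 CPM, -0.75), Eif3j1 (75.04 to 50.5 CPM, -0.75), Eif1a (102.9 to 71.5 CPM, -0.70), Eif5b (173.0 to 122.7 CPM, -0.67) and Eif4e (96.5 to 76.9 CPM, -0.50). Eif4e lay on the limit, at -0.500, and its log2 ratio before centring, -0.328, had an interval from -0.564 to -0.092. All 7 genes called lower in feeders were also among the 15 of ES cells. Eef1b2 was called higher in both cell types, at 1355 and 2301 CPM in feeders (0.59). The same overlap over all genes was not counted, so it is not shown to be particular to these factors. In feeders with ES markers under 0.2% of UMIs the counts were also 7 lower and 4 higher, with no share of all genes at that gate given beside them. Pou5f1 was counted in feeder barcodes at 6.39% of its ES cell level in the control and 2.81% after CX-5461, and the part of ES cell RNA in the feeder values was not tested.

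The other 3 genes called higher in feeders were Eif2ak2 (29.1 to 52.9 CPM, 0.69), the double-stranded RNA sensor PKR, Eif4a3 (22.1 to 39.4 CPM, 0.66) and Eif2b2 (31.6 to 54.8 CPM, 0.62). In ES cells these had relative log2 ratios of -0.48, 0.18 and 0.12. In feeders these 3 genes had 95, 72 and 103 control UMIs and 196, 146 and 203 treated UMIs, in the same order. None reached the minimum for a comparison on its control UMIs alone. Their calls in feeders therefore rested in part on their higher treated counts. Eif3e and Eif4e2, called lower in ES cells, were at -0.05 and 0.12 in feeders, with 257.9 and 281.4 CPM and with 145.2 and 178.0 CPM. Fibroblast marker levels differed between the feeders of the libraries, as given above, and the part of cell makeup in these values was not tested.

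**Figure D5:**
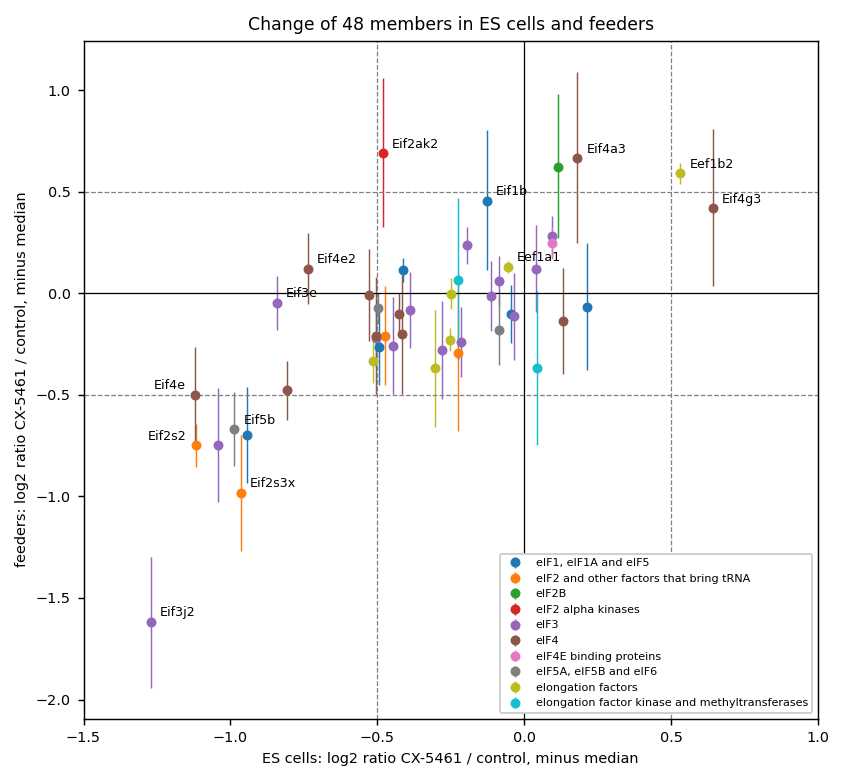
Relative log2 ratio of 48 members in ES cells (x axis) and feeders (y axis), coloured by role, with 95% counting intervals for feeders; dashed lines mark the limits at 0.5. Eif3j2 lies lowest on both axes at -1.27 and -1.62, Eef1b2 is above the limit on both, and Eif2ak2 is above it in feeders at 0.69 with -0.48 in ES cells.

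Levels also differed between the cell types within a library. Of the 48 genes, 14 had a higher CPM in feeders than in ES cells in the control and 16 after CX-5461. Eif4g3 stood out with 27.6 CPM in control feeders, 7.08 times its ES cell level, and 41.5 CPM in treated feeders (5.38 times). Eif1b, a paralog of Eif1, was 1.76 and 2.33 times higher in feeders. ES cells had the higher levels of Eif4a3, where the feeders' level was 0.238 times theirs in the control, of Eif2s2 (0.381 times) and of Eif4a1 (0.385 times). Eef1a1 was nearly level, at 1.08 times in the control and 1.09 times after CX-5461.

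Around these factors, 4 further lists of the translation pathway were read in ES cells, where 20.6% of all genes were called lower and 23.5% higher. Of 16 genes for poly(A) binding, termination and recycling, 6 were called lower and 0 higher, with the release factor gene Gspt1 lowest (61.6 to 34.1 CPM, -1.20) and Mcts1, a recycling factor, highest (40.2 to 64.7 CPM, 0.34). Of 17 genes that control initiation, 4 were lower and 0 higher, from Larp1, a binder of TOP mRNAs (42.0 to 25.5 CPM, -1.07), to the eIF4E kinase gene Mknk2 (5.89 to 9.96 CPM, 0.41). The stress transcription factor Atf4, whose mRNA is read more when eIF2 is phosphorylated, was at 132.7 and 100.9 CPM (-0.74). Of 22 genes listed with the cytosolic aminoacyl-tRNA synthetases, which load tRNAs with amino acids (the list also holds Aimp1 and Aimp2, scaffold proteins of the synthetase complex, neither of them called), 7 were lower and 1 higher, from Nars (103.2 to 63.3 CPM, -1.05) to Cars (39.9 to 75.2 CPM, 0.57). Of 8 compared mitochondrial translation factors 0 were lower and 1 was higher, from Mrrf (19.9 to 19.2 CPM, -0.40) to Mtif2 (14.3 to 26.4 CPM, 0.53). The medians of these lists were -0.36, -0.10, -0.32 and -0.16, in the order given, beside -0.25 for the Eif and Eef genes.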

How the data were processed

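Single-cell RNA-seq of mouse ES cells on feeders, untreated or given CX-5461, was analysed. The deposited values are UMI counts, not normalized, for each gene in each barcode; the authors produced them from droplet (10x Genomics 3′) reads following an earlier published workflow. The genome build in the submitters' notes is mm10, and per those notes Seurat 2.3.4 was used afterwards. Their filters (at least 500 UMIs, at most 0.2 on mt- genes) are not yet applied in the deposited counts and were applied here.

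Symbols came from GENCODE vM21 (GRCm38); 54079 of 54146 identifiers matched, 52480 with the version. Counts were summed over the cells of each type with Python 3.11.15, numpy 2.4.6, scipy 1.17.1 and pandas 2.3.3. Levels have exact Poisson intervals, ratios exact conditional binomial ones and shares Clopper-Pearson ones, all at 95%. Barcodes are cells of 1 library per condition, so no p-value was computed. Library totals were 49610287 and 69841836 UMIs. No doublet caller was run. Predicted proteins were the longest reading frames of GENCODE transcripts, aligned to each other.

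The members, gene lists and cell gates were chosen with earlier results of these data known. Genes named are the 10 highest and 10 lowest members by ratio in ES cells and the 10 most abundant, the 5 highest and 5 lowest in feeders, the TOP list, paralog pairs, and the ends of each pathway list; others named for their role or for lying near a limit were chosen after their values were seen. Ratio and thinning steps were tested on simulated data. Alternatives covered scaling (with edgeR 4.0.16 for TMM), minimum counts, call size, cell gates and depth; 3 gates were added after the data were seen. Columns of counts marked by the authors as shared between genes were used only to check single genes.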

Additional observations from a re-analysis of the deposited data

Results flagged for a closer look

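Outside the 70 genes, 16 further genes encode proteins like eIF1A. They were found by searching GENCODE transcripts with the Eif1ax protein and are 90.1% to 93.9% identical to it over 91.0% of its length, but have Gm symbols or, for BB287469, a sequence name, so that the naming rule missed them. In ES cells they summed to 34.4 CPM in the control and 158 CPM after CX-5461, against 303.2 and 237.5 CPM for Eif1a and Eif1ax together. All 7 of those with enough UMIs were called higher, beside 23.5% of all genes. Their values ran from 1.33 (Gm8300, 9.23 to 29.5 CPM) to 2.51 (Gm8332, 2.79 to 20.2 CPM). Gm4027, Gm2016, Gm8332, Gm5039 and BB287469, with 84, 93, 121, 149 and 192 control UMIs, passed the minimum only through the treated library. The count of 7 is therefore partly set by the minimum. Gm5662 was the most abundant after CX-5461 (8.63 to 37.7 CPM). A UMI of any of the 16 genes was found in 3.06% of control and 12.4% of treated ES cells, or 1.47% and 7.12% after thinning to 5000 UMIs. In feeders the shares were 1.42% and 4.11%. In the control, 87.2% of these UMIs came from 8 ES cells with at least 5 UMIs of markers of the 2-cell-like state, and in the treated library 83.3% came from 56 such cells, where the genes stood at 10765 and 10113 CPM. Eif1a was at 74.4 and 106.8 CPM in those cells. The copies are near-identical and share reads, so the values of single copies are uncertain.

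The 10 Eif and Eef pseudogenes left out of the members summed to 32.7 CPM in control and 53.4 CPM in treated ES cells. They are listed here because that sum was higher in the treated library. Of the 2 with enough UMIs, 1 was called lower and 1 higher, beside 20.6% and 23.5% of all genes.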

How the results depend on the processing

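The counts of calls depended on the scale. The shares of all genes called, given above, hold for the main settings only. Shares at the other settings are not given here, so the counts of calls in this section have no background beside them. With library totals and no centring, 7 members were lower and 8 higher in ES cells, in place of 15 and 4, and with totals that leave out ribosomal protein and mt- genes 9 were lower and 7 higher; the summed level of all members was then 0.117 and 0.055 above the control (log2), in place of -0.231, while 39 of 65 members lay above 0 and 26 below without centring. Calls at 0.25 gave 32 lower members in ES cells, and calls at 1 gave 4 lower and 1 higher. With at least 50 UMIs 2 were higher in ES cells, where Eef1b2 was at 0.49. In feeders, calls at 0.25 gave 15 lower and 7 higher, and calls at 1 gave 1 lower and 0 higher; no p-value exists for these counts. With at least 50 UMIs 7 were higher in feeders, and with 1 UMI in each library 11. Feeders with collagen at 0.5% or more, 11 control and 34 treated cells, left 16 genes to compare, with 2 lower and 1 higher. Apart from the scale, the minimum or the call size, whose own construction sets these counts, the cause was not tested.

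Over 14 alternatives of scale, minimum and gate, at the same call size, the 19 called genes gave 266 values in ES cells, all of the sign of the call, and 237 of them still past the limit. Called under all 14 were Eif3j2, Eif4e, Eif2s2, Eif3j1, Eif5b, Eif2s3x, Eif1a, Eif4g3 and Eif2s3y. Of these, Eif5b, Eif2s3x, Eif1a and Eif4g3 were not called at a call size of 1. The deepest of the depth classes given above is not among the 14. In that class only Eif4g3 of the genes listed lay inside the limit, at 0.157 (interval -0.305 to 0.620). With 169 control and 478 treated UMIs in ES cells, Eif4g3 also passed the main minimum only through the treated library. In ES cells with ES markers at 0.2% of UMIs or more, 17 members were lower and 5 higher, and in those without a UMI of a 2-cell-like marker 12 and 5. No paired analysis was possible because each condition is 1 library whose barcodes carry no replicate number, and for the same reason no replicate could be left out. Depth limits Eif4e1b, Eif4e3, Eef1akmt3, Eif2c5 and Eef1a2, and 22 members in feeders.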
